A study of Mus musculus with 12 samples.

Results

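The subject is 10 genes of the TNF superfamily, 6 ligands (Tnf, Lta, Ltb, Tnfsf9, Tnfsf10 and Tnfsf15) and 4 receptors (Tnfrsf1a, Tnfrsf1b, Tnfrsf9 and Fas), taken by gene name from a list set with earlier results of these data known. They are 10 of the 55416 gene identifiers counted, and all 10 passed the filter on low counts that left 26420 genes for testing. RNA was sequenced from SIM-A9, a cell line of mouse microglia labelled as C57BL/6 in strain. The groups were H14 cells, labelled as a knockout of the kinase gene Mok (KO), given lipopolysaccharide (LPS), H14 cells in medium alone, wild-type cells (WT) given LPS, and wild-type cells in medium alone. LPS, a bacterial cell wall component sensed by Toll-like receptor 4, was used at 1 µg/mL for 5 h. Each group held 3 libraries, 12 in all, labelled as biological replicates. The labels do not say how the cultures were kept apart, so a p-value here reflects only the spread among these libraries, which may be technical. The KO group is 1 line, H14, so an effect of Mok loss and an effect of anything else that sets H14 apart from WT cells cannot be told apart.

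TNF superfamily ligands are mostly membrane proteins that can be cut from the cell surface, and they bind cell-surface receptors of a matching family. Receptors with a death domain, such as TNF receptor 1 and Fas, can signal cell death as well as NF-kB activation, whereas receptors without one recruit TRAF adaptors. In microglia, TNF is among the main cytokines released after Toll-like receptor stimulation, and many genes of the family are known targets of NF-kB.

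The promoters of 4 of the genes are shown because these genes carry the main results. Tnf rose most under LPS in both lines, Tnfsf10 differed most between the lines under LPS, Tnfrsf1a was called in opposite directions in the 2 lines, and Fas was the gene called higher in KO cells under LPS. Each run holds the 250 bases before the annotated start site, 5′ to 3′ on the gene's strand (RefSeq, GRCm38.p6). Capitals mark matches on either strand to a general NF-kB pattern, GGGNNNNNCC, or to a general interferon-stimulated response pattern, GAAANNGAAA, with overlapping matches joined. The Tnf run is chr17:35202008-35202257 on the minus strand. Those of Tnfsf10, Tnfrsf1a and Fas are chr3:27316827-27317076, chr6:125349473-125349722 and chr19:34290409-34290658, all on the plus strand.
Tnf: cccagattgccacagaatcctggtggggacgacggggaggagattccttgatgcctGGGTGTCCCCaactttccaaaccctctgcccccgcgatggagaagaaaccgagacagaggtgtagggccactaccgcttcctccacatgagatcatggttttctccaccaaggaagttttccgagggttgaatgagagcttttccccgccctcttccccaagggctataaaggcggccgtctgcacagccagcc
Tnfsf10: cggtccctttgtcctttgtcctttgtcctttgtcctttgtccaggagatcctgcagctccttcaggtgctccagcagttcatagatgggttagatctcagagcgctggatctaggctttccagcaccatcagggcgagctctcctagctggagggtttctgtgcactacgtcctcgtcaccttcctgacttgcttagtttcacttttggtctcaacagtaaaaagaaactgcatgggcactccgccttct
Tnfrsf1a: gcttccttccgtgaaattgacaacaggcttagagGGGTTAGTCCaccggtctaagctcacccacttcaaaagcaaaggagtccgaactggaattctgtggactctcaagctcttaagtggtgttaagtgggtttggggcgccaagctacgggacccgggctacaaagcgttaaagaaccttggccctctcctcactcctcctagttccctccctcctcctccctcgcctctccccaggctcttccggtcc
Fas: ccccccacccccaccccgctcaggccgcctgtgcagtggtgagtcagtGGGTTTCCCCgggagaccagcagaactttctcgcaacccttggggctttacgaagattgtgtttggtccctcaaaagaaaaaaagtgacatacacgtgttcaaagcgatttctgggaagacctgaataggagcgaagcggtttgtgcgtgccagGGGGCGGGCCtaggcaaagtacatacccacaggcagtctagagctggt

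Of the 10 genes, 9 had a promoter in the table, and Tnfsf9 had none. Counting overlapping matches and both strands, the NF-kB pattern matched 2 times in Tnf, on the same bases read from either strand, 3 times in Fas, 2 of them likewise on the same bases, 1 time in Tnfrsf1a and not within the 250 bases of Tnfsf10. The interferon-stimulated response pattern matched in none of these 4. Among all 32851 promoters of the same length, 45.8% held the NF-kB pattern and 2.98% the interferon-stimulated response pattern. A match is a run of letters and not a bound site.

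Library totals ran between 39.7 and 72.9 M counts (M, 1000000). Mok was counted in every library, 56 to 84 times in KO cells under LPS and 95 to 117 times in KO cells in medium, against 87 to 164 times in WT cells under LPS and 158 to 206 times in WT cells in medium. Of 12 microglia and macrophage markers, 8 were at 1 CPM (counts per M counts after TMM scaling) or more in every library. Aif1, Cx3cr1, P2ry12 and Tmem119 were below that in at least 1 library. Itgam, among the 8, averaged 2.95 CPM in KO cells under LPS and 3.67 CPM in KO cells in medium. In WT cells it averaged 24.2 CPM under LPS and 20.9 CPM in medium. In medium Ptprc (188 and 187 CPM) and Tmem119 (5.97 and 3.86 CPM) had the higher mean in KO than in WT cells. The list of 12 summed to 1043 to 1452 CPM in KO cells under LPS and 757.5 to 1090 CPM in KO cells in medium, against 1488 to 1704 CPM and 1131 to 1327 CPM in WT cells under LPS and in medium. Of 8 T and NK cell markers, 7 stayed below 1 CPM everywhere and Cd3e did not, at 18 CPM in KO cells under LPS, 2.45 in KO cells in medium, 9.18 in WT cells under LPS and 6.19 in WT cells in medium. That list summed to 14.01 to 22.6 CPM in KO cells under LPS and 2.01 to 6.09 CPM in KO cells in medium, against 9.32 to 10.9 and 2.68 to 10.7 CPM in WT cells under LPS and in medium. The 5 oligodendrocyte markers summed to 11.6 to 15.1 CPM in KO cells under LPS and 25.1 to 25.9 CPM in KO cells in medium, against 7.04 to 7.29 and 9.83 to 15.1 CPM in WT cells under LPS and in medium, most of it Mbp. The B cell, neuron, astrocyte and fibroblast lists, 5 markers each, summed to at most 4.83 CPM in any library. Processed pseudogenes took 6.64% to 7.35% of the counts in KO cells under LPS and 12.8% to 14.3% in KO cells in medium, against 6.28% to 7.05% and 6.58% to 13% in WT cells under LPS and in medium. KO LPS replicate 2 and WT medium replicate 2 stood apart from their groups, with chi-square values per degree of freedom of up to 174 and 151 against their fellow replicates and a lowest value of 21.6 between any replicates. The part of the marker levels in the results was not tested, and fits with the pseudogene share as a covariate are given where they end a call on the 10 genes. In KO cells every LPS library had a lower share than every medium library. In medium the KO libraries, at 12.8% to 14.3%, mostly had a higher share than the WT libraries, at 8.89%, 13% and 6.58%. The covariate is therefore partly confounded with LPS in KO cells and with the line in medium. A call lost with the covariate need not mean a smaller effect.

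LPS raised nearly the whole set. In KO cells 9 of the 10 genes were called higher under LPS than in medium and 1 lower, where 25.3% and 26.8% of all genes tested were called higher and lower. In WT cells all 10 were called higher, where 16.3% of all genes were called higher and 16.3% lower, and DESeq2 also called none lower. The median log2 fold change of the set was 2.75 in KO cells and 3.79 in WT cells, against -0.03 and -0.07 over all genes. The set was chosen with earlier results of these data known. Its shares and medians against all genes therefore describe these 10 genes and are no test of the family. Scaling by library size alone moved the medians of all genes to -0.29 and -0.40, with 4182 genes higher and 10422 lower in KO cells and 2104 higher and 9985 lower in WT cells. By the scaled libraries those counts were 6679 and 7070 in KO cells and 4303 and 4297 in WT cells.

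**Figure D1:**
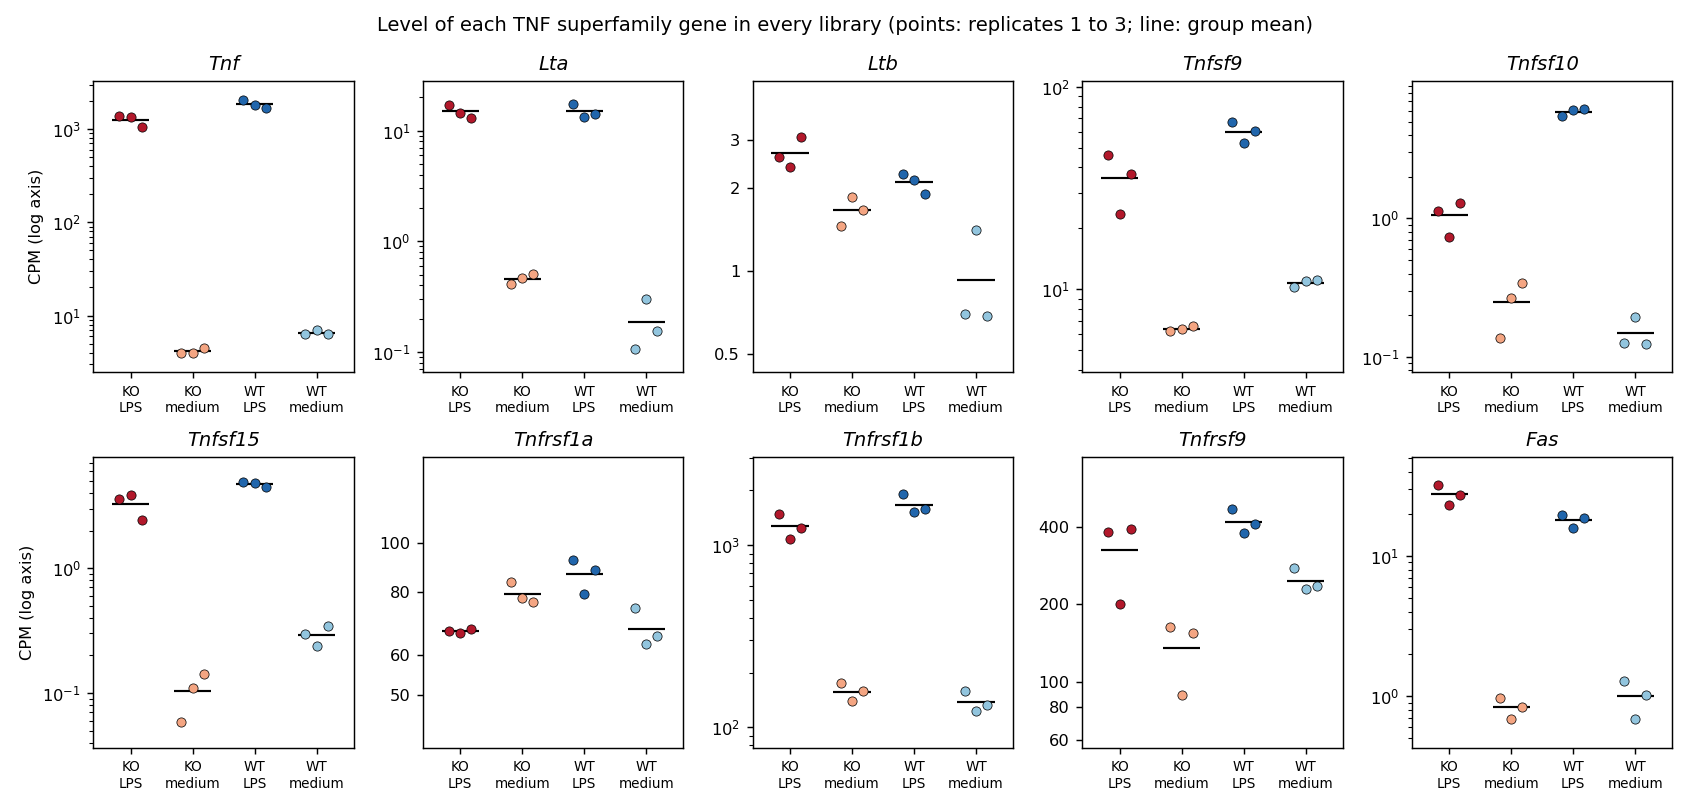
Level of each of the 10 genes in every library, in CPM on a log axis of its own range, for KO and WT cells under LPS and in medium, with points for replicates 1 to 3 and a line at the group mean. Tnf stands at 1042 CPM or more in all LPS libraries and at 6.96 CPM or less in all medium libraries, and Tnfsf10 lies at 0.735 to 1.3 CPM in KO cells under LPS against 5.47 to 6.13 CPM in WT cells under LPS.

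Among the ligands, Tnf, the best known of the family's inflammatory cytokines, had the largest rise. In KO cells it stood at 1370, 1355 and 1042 CPM in LPS replicates 1, 2 and 3, against 3.97, 3.98 and 4.5 CPM in medium. In WT cells it stood at 2045, 1793 and 1672 CPM under LPS, against 6.38, 6.96 and 6.33 CPM in medium. The KO libraries lay below every WT library in each condition. Tnf was 303-fold higher under LPS in KO cells (log2 fold change 8.24 ± 0.13, SE; edgeR adjusted p = 1.25e-10) and 280-fold higher in WT cells (8.13 ± 0.12; adjusted p = 1.77e-10). The LPS effect in KO cells minus that in WT cells was 0.11 on the log2 scale (95% interval -0.28 to 0.50; edgeR adjusted p = 0.794). The level in KO cells was 1.46-fold lower than in WT cells under LPS (-0.55 ± 0.12; edgeR adjusted p = 0.00663) and 1.58-fold lower in medium (-0.66 ± 0.13; adjusted p = 0.00425). Both line differences were called under all 22 alternatives. In bulk RNA, fewer cells that express a gene and less of its RNA per cell cannot be told apart.

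Lta encodes lymphotoxin alpha, which binds the TNF receptors as a soluble trimer and joins lymphotoxin beta at the cell surface. Its levels in KO cells were 17.1, 14.5 and 12.9 CPM under LPS and 0.408, 0.464 and 0.507 CPM in medium. WT cells had 17.5, 13.3 and 14.1 CPM under LPS and 0.105, 0.303 and 0.156 CPM in medium. The lines overlapped under LPS and were apart in medium, where the 3 KO libraries lay above the 3 WT libraries. In medium Lta was 2.46-fold higher in KO cells (log2 fold change 1.30 ± 0.31; edgeR adjusted p = 0.0122), on 21 to 25 counts per KO library and 5 to 14 per WT library. That call did not hold when WT medium replicate 3 was left out (adjusted p = 0.0534), with the pseudogene share as a covariate (0.62; adjusted p = 0.578) and with only the 2 groups compared in the fit (adjusted p = 0.0912), by edgeR. Under LPS the difference was -0.01 (95% interval -0.49 to 0.48; edgeR adjusted p = 0.989). LPS raised Lta 32.2-fold in KO cells (5.01 ± 0.25; edgeR adjusted p = 1.73e-07) and 79.6-fold in WT cells (6.32 ± 0.29; adjusted p = 6.2e-08). The difference between these effects was -1.31 ± 0.38 (edgeR adjusted p = 0.14), and without WT medium replicate 2, the highest of its group, it was -1.75 (adjusted p = 0.0103).

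Ltb, the membrane partner of Lta and a ligand of the lymphotoxin beta receptor, was low throughout. Its levels in KO cells were 2.59, 2.39 and 3.06 CPM under LPS and 1.46, 1.86 and 1.66 CPM in medium. Those in WT cells were 2.25, 2.14 and 1.9 CPM under LPS and 0.695, 1.41 and 0.686 CPM in medium, where replicate 2 was the high one. LPS libraries lay above medium libraries in both lines. Ltb rose 1.61-fold under LPS in KO cells (0.69 ± 0.27; edgeR adjusted p = 0.0492) and 2.26-fold in WT cells (1.18 ± 0.27; adjusted p = 0.00786). The KO call held under 8 of 22 alternatives. Leaving out any 1 of the 6 KO libraries, any 1 of the 3 WT LPS libraries or WT medium replicate 1 ended it, with edgeR adjusted p between 0.0565 and 0.162, as did library size alone, no filter, a count minimum of 50 and protein-coding genes only, and the WT call was lost with only the 2 groups compared (adjusted p = 0.0687). The line difference in medium was 0.84 ± 0.28 and missed the threshold (edgeR adjusted p = 0.0543), and without WT medium replicate 2 it was 1.24 (adjusted p = 0.00151). It was also called by DESeq2 (adjusted p = 0.0156) and by edgeR with a count minimum of 50 (0.0436), with the replicate block (0.0479) and with protein-coding genes only (0.0303). Under LPS it was 0.35 (95% interval -0.23 to 0.94; edgeR adjusted p = 0.446). The LPS effect in KO cells minus that in WT cells was -0.49 ± 0.38 (edgeR adjusted p = 0.595).

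Tnfsf9 encodes the 4-1BB ligand, the partner of the receptor encoded by Tnfrsf9. KO cells had 46.2, 23.6 and 37 CPM under LPS and 6.24, 6.34 and 6.59 CPM in medium. WT cells had 66.8, 52.5 and 60.4 CPM under LPS and 10.3, 11 and 11.1 CPM in medium. KO libraries were below WT libraries in both conditions, and KO LPS replicate 2 was the lowest LPS library. The rise under LPS was 5.57-fold in KO cells (2.48 ± 0.19; edgeR adjusted p = 4.1e-06) and 5.56-fold in WT cells (2.47 ± 0.19; adjusted p = 3.63e-06), and the difference between the effects had a 95% interval of -0.59 to 0.59. Tnfsf9 was 1.68-fold lower in KO than in WT cells under LPS (-0.75 ± 0.19; edgeR adjusted p = 0.0139) and 1.69-fold lower in medium (-0.76 ± 0.19; adjusted p = 0.0188). These calls were lost in 1 alternative each, without WT LPS replicate 1 (edgeR adjusted p = 0.0586) and with the pseudogene covariate (-0.87; adjusted p = 0.0664). Tnfsf9 shares 12.9% of its 31-base words with Gm11110, a gene on the opposite strand with overlapping exons and 229 to 408 counts per library. The strand setting of the counting is not given in the sources used here, so reads from the overlapping exons cannot be told apart.

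Tnfsf10 encodes TRAIL, a ligand that can trigger apoptosis through death receptors, and it had the largest line difference of the set under LPS. KO cells had 1.13, 0.735 and 1.3 CPM under LPS and 0.136, 0.265 and 0.345 CPM in medium. WT cells had 5.47, 6.06 and 6.13 CPM under LPS and 0.126, 0.195 and 0.125 CPM in medium. Under LPS every KO library was far below every WT library, while in medium the lines overlapped. Tnfsf10 rose 4.21-fold under LPS in KO cells (2.07 ± 0.33; edgeR adjusted p = 0.00064) and 39.4-fold in WT cells (5.30 ± 0.35; adjusted p = 8.98e-07). Under LPS it was 5.6-fold lower in KO than in WT cells (-2.49 ± 0.29; edgeR adjusted p = 0.000104). The difference between the LPS effects was -3.23 ± 0.48 (95% interval -4.28 to -2.17; edgeR adjusted p = 0.00769). The line difference under LPS was called in 22 of 22 alternatives and the difference between the effects in 21 of 21. The medium libraries held 6 to 17 counts of this gene, so its level there was measured with little depth, and the line difference in medium was 0.74 (95% interval -0.11 to 1.59; edgeR adjusted p = 0.184).

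Tnfsf15 encodes TL1A, the ligand of the death domain receptor encoded by Tnfrsf25. Its levels in KO cells were 3.54, 3.86 and 2.43 CPM under LPS and 0.0583, 0.11 and 0.142 CPM in medium. WT cells had 4.87, 4.84 and 4.45 CPM under LPS and 0.295, 0.238 and 0.343 CPM in medium. KO libraries lay below WT libraries in both conditions. The rise under LPS was 31.1-fold in KO cells (4.96 ± 0.33; edgeR adjusted p = 5.88e-07) and 15.9-fold in WT cells (3.99 ± 0.27; adjusted p = 1.28e-06). The difference between these effects was 0.97 ± 0.43 (edgeR adjusted p = 0.331) and was called in 0 of 21 alternatives. Tnfsf15 was 2.81-fold lower in KO than in WT cells in medium (-1.49 ± 0.35; edgeR adjusted p = 0.0101), on 3 to 7 counts per KO library and 11 to 22 per WT library. That call did not hold when WT medium replicate 3 was left out (edgeR adjusted p = 0.0504) and with the pseudogene covariate (-1.22; adjusted p = 0.173). Under LPS the difference was -0.52 ± 0.24 (edgeR adjusted p = 0.163).

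**Figure D2:**
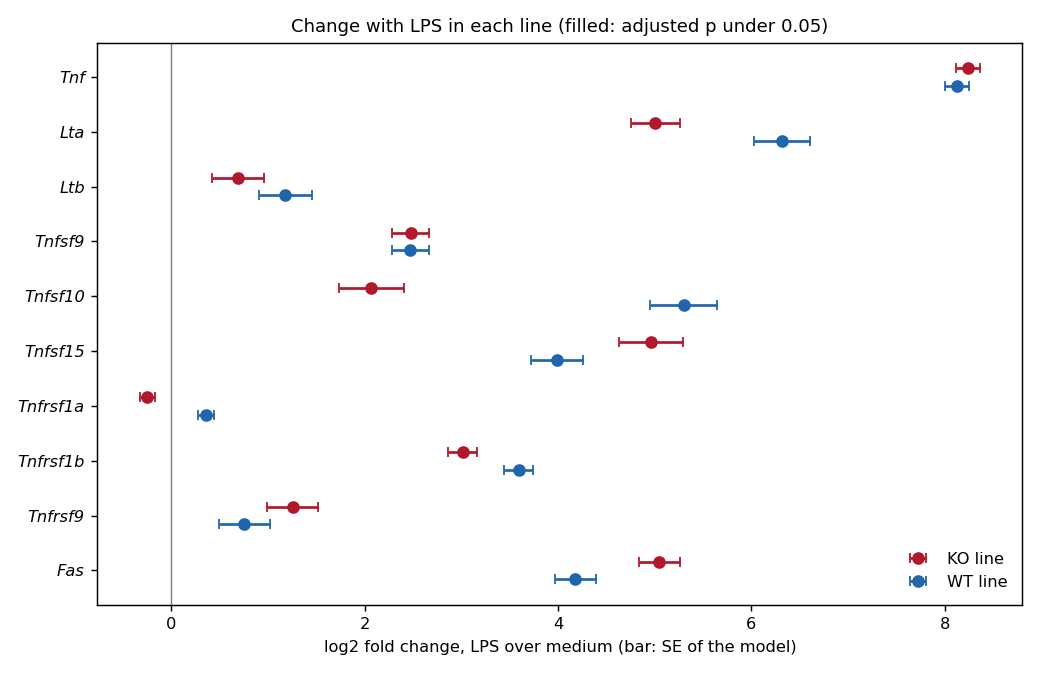
LPS effect on each of the 10 genes as the log2 fold change against medium with its SE, in KO cells and in WT cells (3 libraries per group). Tnf has the largest effect in both lines, at 8.24 in KO cells and 8.13 in WT cells, Tnfsf10 stands at 2.07 in KO cells against 5.30 in WT cells, and Tnfrsf1a lies below 0 in KO cells and above 0 in WT cells.

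Of the receptors, Tnfrsf1a, the death domain TNF receptor found on most cell types, was at 66.8, 66.4 and 67.5 CPM in KO cells under LPS and at 83.7, 77.7 and 76.5 CPM in KO cells in medium. It was at 92.3, 79.1 and 88.4 CPM in WT cells under LPS and at 74.3, 63 and 65.2 CPM in WT cells in medium. LPS libraries lay below medium libraries in KO cells and above them in WT cells. Tnfrsf1a fell under LPS in KO cells (log2 fold change -0.24 ± 0.08; edgeR adjusted p = 0.0265) and rose in WT cells (0.36 ± 0.08; adjusted p = 0.00657). The difference between the effects was -0.60 ± 0.12 (95% interval -0.86 to -0.35; edgeR adjusted p = 0.0267). Under LPS Tnfrsf1a was 1.29-fold lower in KO than in WT cells (-0.37 ± 0.08; edgeR adjusted p = 0.00664), a call made in all 22 alternatives, and in medium the difference was 0.23 (adjusted p = 0.0684), called in 5 of 22 alternatives (lowest adjusted p = 0.0139, with protein-coding genes only).

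The smaller calls on Tnfrsf1a depended on single libraries and on scaling. The fall in KO cells was lost without KO LPS replicate 1, 2 or 3 (edgeR adjusted p = 0.0715, 0.0623 and 0.0653), with RLE scaling (adjusted p = 0.0863), with DESeq2 (adjusted p = 0.103) and with the pseudogene covariate (-0.29; adjusted p = 0.43). The rise in WT cells was 0.02 with library size alone (edgeR adjusted p = 0.795). Relative to the median of all genes, it was 0.43 under that scaling and under the main one, and the effect in KO cells was -0.21 under both. A change of scaling shifts all genes of a comparison nearly alike, so this agreement follows from the subtraction and is no separate check. With protein-coding genes only, the values relative to the median were 0.28 in WT cells and -0.36 in KO cells. The difference between the effects was lost without KO LPS replicate 1 or 3 (edgeR adjusted p = 0.0694 and 0.0744), without WT LPS replicate 1 or 3 (adjusted p = 0.0885 and 0.0699) and with the pseudogene covariate (-0.63; adjusted p = 0.0872).

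Tnfrsf1b encodes the other TNF receptor, which lacks a death domain and responds well to membrane-bound TNF. KO cells had 1492, 1081 and 1243 CPM under LPS and 175, 139 and 158 CPM in medium. WT cells had 1911, 1513 and 1578 CPM under LPS and 158, 124 and 132 CPM in medium. The lines overlapped in medium, and under LPS the KO libraries lay below the WT libraries by a small margin. Tnfrsf1b rose 8.08-fold under LPS in KO cells (3.02 ± 0.15; edgeR adjusted p = 1.35e-07) and 12.1-fold in WT cells (3.59 ± 0.15; adjusted p = 4.26e-08). The difference between these effects was -0.58 ± 0.21 and was not called (edgeR adjusted p = 0.25). It was called in 1 of 21 alternatives, the replicate block. Under LPS the line difference was -0.39 ± 0.15 and missed the threshold (edgeR adjusted p = 0.0916). It was called in 4 of 22 alternatives. The difference was -0.52 without KO LPS replicate 1 (edgeR adjusted p = 0.0429) and -0.40 without WT medium replicate 2 (adjusted p = 0.0491). With protein-coding genes only it was -0.42 (edgeR adjusted p = 0.026) and with the replicate block -0.40 (adjusted p = 0.000907). The ratio of Tnfrsf1b to Tnfrsf1a, each in CPM per kilobase of exon, was 12.9 ± 2.1 (SD, n = 3) in KO cells under LPS and 1.35 ± 0.11 in KO cells in medium. In WT cells it was 13.1 ± 0.97 under LPS and 1.39 ± 0.056 in medium, so the lines overlapped in this ratio in both conditions.

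Tnfrsf9, the 4-1BB costimulatory receptor, was already abundant without LPS. KO cells had 383, 201 and 390 CPM under LPS and 164, 89.3 and 154 CPM in medium. WT cells had 466, 377 and 410 CPM under LPS and 276, 229 and 236 CPM in medium. Replicate 2 was the lowest library in all 4 groups, and the lines overlapped under LPS and not in medium. The rise under LPS was 2.39-fold in KO cells (1.26 ± 0.26; edgeR adjusted p = 0.00353), and under the pseudogene covariate its log2 fold change was 1.33 (adjusted p = 0.202). It was 1.69-fold in WT cells (0.76 ± 0.26; edgeR adjusted p = 0.0485), a call that held in 8 of 22 alternatives. Leaving out KO LPS or KO medium replicate 1 or 3, or any WT library, ended it (edgeR adjusted p between 0.0542 and 0.158), as did library size alone, no filter, protein-coding genes only and the pseudogene covariate (0.79; adjusted p = 0.157). In medium Tnfrsf9 was 1.82-fold lower in KO than in WT cells (-0.86 ± 0.26; edgeR adjusted p = 0.0443), a call that held in 10 of 22 alternatives. It was lost without KO LPS replicate 1 or 3, KO medium replicate 2 or 3, any WT LPS replicate or WT medium replicate 1 or 3 (edgeR adjusted p between 0.0525 and 0.108), with no filter, with only the groups compared and with the pseudogene covariate (-0.91; adjusted p = 0.21). Under LPS the line difference was -0.36 (95% interval -0.94 to 0.22; edgeR adjusted p = 0.426). The LPS effect in KO cells minus that in WT cells was 0.50 ± 0.37 (edgeR adjusted p = 0.583).

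Fas, the death domain receptor for Fas ligand, was near 1 CPM without LPS. Its levels in KO cells were 32, 23.3 and 27.5 CPM under LPS and 0.972, 0.685 and 0.831 CPM in medium. WT cells had 19.8, 16 and 18.6 CPM under LPS and 1.29, 0.692 and 1.01 CPM in medium. Under LPS the KO libraries lay above the WT libraries, and in medium they overlapped. Fas rose 33.1-fold under LPS in KO cells (5.05 ± 0.21; edgeR adjusted p = 4.96e-08) and 18.1-fold in WT cells (4.18 ± 0.21; adjusted p = 1.52e-07). Under LPS it was 1.52-fold higher in KO than in WT cells (0.60 ± 0.19; edgeR adjusted p = 0.0458), a call that held in 14 of 22 alternatives. It was lost with RLE scaling (edgeR adjusted p = 0.0563), with no filter (0.0576), without KO LPS replicate 1 or 3 (0.19 and 0.115), without KO medium replicate 3 (0.0583) and without WT LPS replicate 1, 2 or 3 (0.0843, 0.167 and 0.114). The difference between the LPS effects was 0.87 ± 0.30 (edgeR adjusted p = 0.218), and 1.07 without WT medium replicate 2 (adjusted p = 0.0179).

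Set side by side, the lines differed in 5 of the 10 genes in each condition. Under LPS 1 gene of the 10, Fas, was called higher in KO than in WT cells and 4 lower (Tnf, Tnfsf9, Tnfsf10 and Tnfrsf1a), where 7.87% and 12.7% of all genes were called higher and lower, so the share called higher was near that of all genes. In medium 1 gene, Lta, was called higher and 4 lower (Tnf, Tnfsf9, Tnfsf15 and Tnfrsf9), where the shares over all genes were 6.88% and 12.3%, and again the share called higher was near its background. Tnf and Tnfsf9 were called lower in both conditions. The median line difference of the set was -0.38 under LPS and -0.04 in medium, against 0.07 and 0.04 over all genes. With the pseudogene covariate none of the 10 was called higher in medium and 1, Tnf, was called lower. The fold changes of the other genes called lower without it were -0.87 for Tnfsf9, -0.91 for Tnfrsf9 and -1.22 for Tnfsf15 with the covariate, against -0.76, -0.86 and -1.49 without it. The LPS effect differed between the lines in 2 genes, both with the lower effect in KO cells (Tnfsf10 and Tnfrsf1a), and 0.908% of all genes were called in that direction. No gene of the set was called by edgeR with a larger effect in KO cells, where 0.693% of all genes were. At an unadjusted p under 0.05 there were 2 such genes, and DESeq2 called 0.

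**Figure D3:**
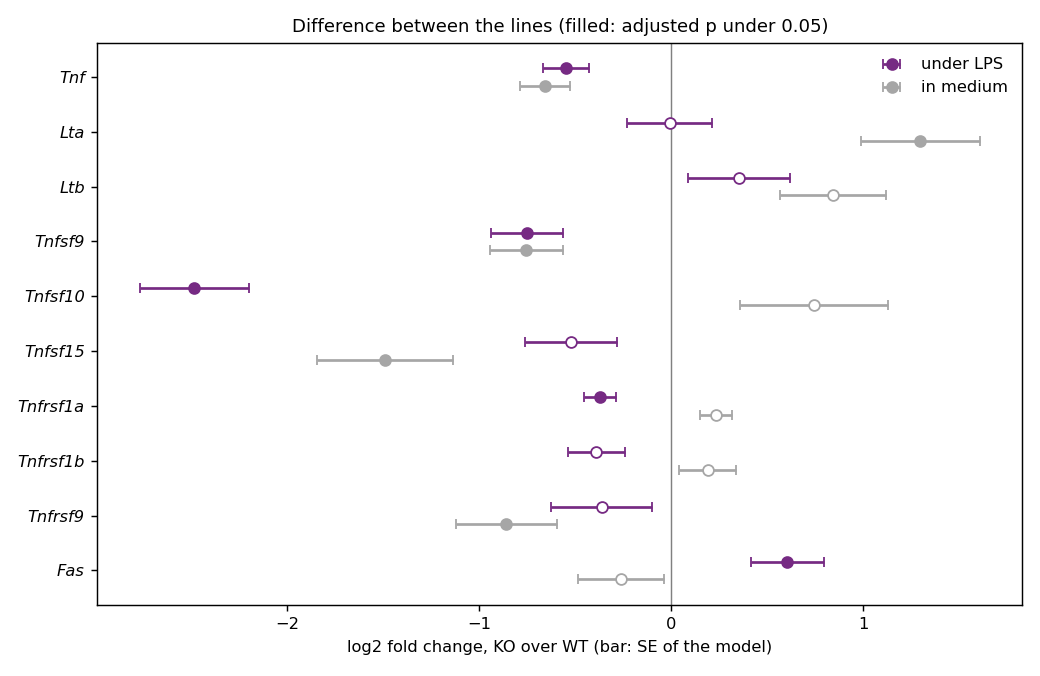
KO minus WT difference of each of the 10 genes as a log2 fold change with its SE, under LPS and in medium (3 libraries per group). Tnf and Tnfsf9 lie below 0 in both conditions, and Tnfsf10 stands at -2.49 under LPS against 0.74 in medium.

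Levels can be compared between genes only per length, in CPM per kilobase of exon. Under LPS the order was led by Tnf, at 766 ± 113 in KO cells and 1121 ± 116 in WT cells (SD, n = 3), followed by Tnfrsf1b at 333 ± 54 in KO cells and 437 ± 56 in WT cells, and by Tnfrsf9 at 119 ± 39 and 153 ± 17. In medium the receptors led, with Tnfrsf9 at 49.9 ± 14.9 in KO cells and 90.7 ± 9.2 in WT cells, then Tnfrsf1b at 41.2 ± 4.8 in KO cells and 36.2 ± 4.7 in WT cells and Tnfrsf1a at 30.6 ± 1.5 and 26.1 ± 2.3. Tnf stood at rank 5 in that order, at 2.53 ± 0.19 in KO cells and 4.0 ± 0.22 in WT cells. The library values of neighbours in the order overlapped in 9 of 36 cases over the 4 groups. In KO cells they were Tnfsf9 (27.6 ± 8.8) with Tnfrsf1a (25.8 ± 0.21) and Fas with Lta under LPS, and Tnfrsf9 with Tnfrsf1b, Fas with Lta and Tnfsf10 with Tnfsf15 in medium. In WT cells they were Lta with Fas and Tnfsf15 with Ltb under LPS, and Ltb with Fas and Lta with Tnfsf15 in medium. Of the summed per-length level of the set, Tnf made up 59% in KO cells and 61.8% in WT cells under LPS, against 1.96% and 2.42% in medium. Tnf exceeded Lta per length by a factor of 71.4 ± 6.3 in KO cells under LPS and 7.64 ± 0.50 in KO cells in medium, against 104 ± 8.6 and 34.9 ± 15.9 in WT cells under LPS and in medium.

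**Figure D4:**
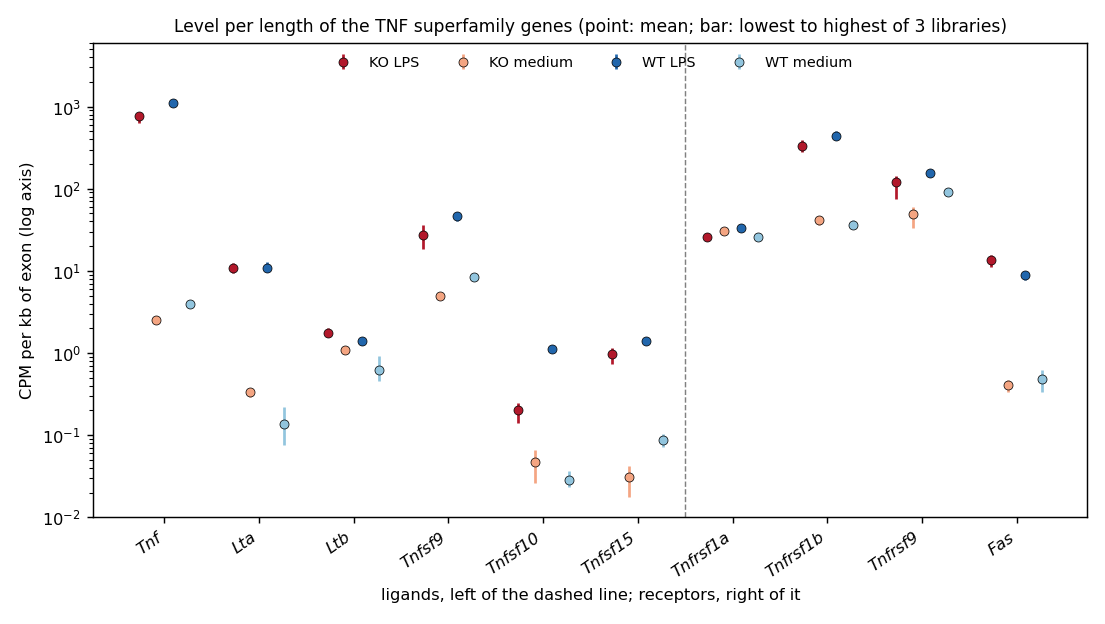
Mean level of each of the 10 genes in CPM per kilobase of exon on a log axis, for KO and WT cells under LPS and in medium. Bars run from the lowest to the highest of 3 libraries. Tnf leads both LPS groups at 766 and 1121, and Tnfrsf9 leads both medium groups at 49.9 and 90.7.

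The rest of the family was read from lists of the other ligands and receptors. Of 12 other ligands 8 were tested, and 1 was called higher and 2 lower under LPS in KO cells and 1 lower in WT cells, with medians of -0.44 and -0.31. None of these shares exceeded that of all genes (25.3% higher and 26.8% lower in KO cells, 16.3% lower in WT cells). Tnfsf13b, which encodes the B cell survival factor BAFF, fell in KO cells (-0.83 ± 0.18; edgeR adjusted p = 0.00329), and with the pseudogene covariate the adjusted p was 0.171. Of 24 other receptors 21 were tested, with 7 higher and 4 lower under LPS in KO cells, where 25.3% and 26.8% of all genes were, and 8 higher and 2 lower in WT cells, where 16.3% and 16.3% were. Cd40, a costimulatory receptor of antigen-presenting cells, rose 61.7-fold in KO cells, to 144 ± 24 CPM under LPS against 2.32 ± 0.19 CPM in medium (SD, n = 3; edgeR adjusted p = 4.87e-10). In WT cells it rose 36.5-fold, to 189 ± 4.7 CPM under LPS against 5.17 ± 0.57 CPM in medium (edgeR adjusted p = 1e-09). The difference between these LPS effects was not called. In medium Cd40 was 2.23-fold lower in KO than in WT cells (-1.15 ± 0.13; edgeR adjusted p = 1e-04), called in 22 of 22 alternatives. Cd27, a costimulatory receptor known from lymphocytes, fell in KO cells (-1.64 ± 0.21; edgeR adjusted p = 0.000128) and in WT cells (-0.81 ± 0.20; adjusted p = 0.0126), and its WT call was lost without WT LPS replicate 1 or 3 (highest adjusted p = 0.0607).

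Of 25 adaptors, ubiquitin enzymes and kinases of receptor-proximal signalling, 16 were called higher and 1 lower under LPS in KO cells (25.3% and 26.8% of all genes) and 17 higher and 2 lower in WT cells (16.3% and 16.3% of all genes), with medians of 0.66 and 0.59. Traf1, an adaptor of TNF receptors and a known NF-kB target, rose 113-fold in KO cells (6.82 ± 0.12; edgeR adjusted p = 1.25e-10) and 47.5-fold in WT cells (5.57 ± 0.11; adjusted p = 3.41e-10). Its level was 252 ± 33 CPM in KO cells under LPS and 2.22 ± 0.25 CPM in KO cells in medium, against 360 ± 13 and 7.58 ± 0.59 CPM in WT cells under LPS and in medium (SD, n = 3). Traf1 was 3.41-fold lower in KO than in WT cells in medium (-1.77 ± 0.12; edgeR adjusted p = 1.82e-06), and its LPS effect was larger in KO cells by 1.26 ± 0.16 (adjusted p = 0.00344). Under LPS 3 genes of this list were higher and 6 lower in KO than in WT cells, where 7.87% and 12.7% of all genes were, with Map3k5, the stress kinase ASK1, at 1.321 ± 0.152 (edgeR adjusted p = 8.65e-05) and the adaptor Traf6 at -1.10 ± 0.10 (adjusted p = 1.13e-05).

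Among 12 genes of death receptor execution, 6 were called higher and 1 lower under LPS in KO cells (25.3% and 26.8% of all genes), and 8 higher and 1 lower in WT cells (16.3% and 16.3% of all genes). Cflar, which encodes the caspase-8 inhibitor c-FLIP, rose 6.29-fold in KO cells (2.65 ± 0.17; edgeR adjusted p = 8.34e-07) and 4.95-fold in WT cells (2.31 ± 0.17; adjusted p = 2.07e-06). Under LPS 1 gene of this list was higher and 6 lower in KO than in WT cells, where 7.87% and 12.7% of all genes were. Bid, which links death receptors to mitochondria, was 1.94-fold higher, at 150 ± 4.0 CPM in KO cells and 77.1 ± 4.2 CPM in WT cells (0.96 ± 0.07; edgeR adjusted p = 3.37e-06). Daxx, first described as a Fas-binding protein, was 2.31-fold lower, at 65.4 ± 15.7 CPM in KO cells and 151 ± 2.8 CPM in WT cells (-1.21 ± 0.14; edgeR adjusted p = 8.56e-05). Its LPS effect was smaller in KO cells by a log2 difference of -1.25 ± 0.20 (edgeR adjusted p = 0.0101), called in 21 of 21 alternatives. That of Bid was larger in KO cells by 0.55 ± 0.10 (edgeR adjusted p = 0.0215), a call lost without KO LPS replicate 3, WT LPS replicate 1 or WT LPS replicate 2, or with the pseudogene covariate (the highest adjusted p was 0.13).

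Shedding releases TNF and its receptors from the cell surface. Of 6 genes of shedding tested, the same 2, Rhbdf2 and Adam17, were called lower in KO than in WT cells under LPS and in medium, where 12.7% and 12.3% of all genes were. Rhbdf2, which encodes iRhom2, a cofactor of the TNF-releasing protease ADAM17, was at 126 ± 1.4 CPM in KO cells and 206 ± 8.4 CPM in WT cells under LPS (-0.71 ± 0.08; edgeR adjusted p = 6.27e-05), and at 28.4 ± 3.1 CPM in KO cells and 45.6 ± 1.7 CPM in WT cells in medium (-0.69 ± 0.08; adjusted p = 0.000129). Adam17 was at 276 ± 24 CPM in KO cells and 410 ± 24 CPM in WT cells under LPS (-0.57 ± 0.09; edgeR adjusted p = 0.000797). It was at 115 ± 9.6 CPM in KO cells and 205 ± 8.3 CPM in WT cells in medium (-0.84 ± 0.09; edgeR adjusted p = 7.46e-05). LPS raised Rhbdf2 4.44-fold in KO cells and 4.52-fold in WT cells (edgeR adjusted p = 1.12e-08 and 1.22e-08).

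**Figure D5:**
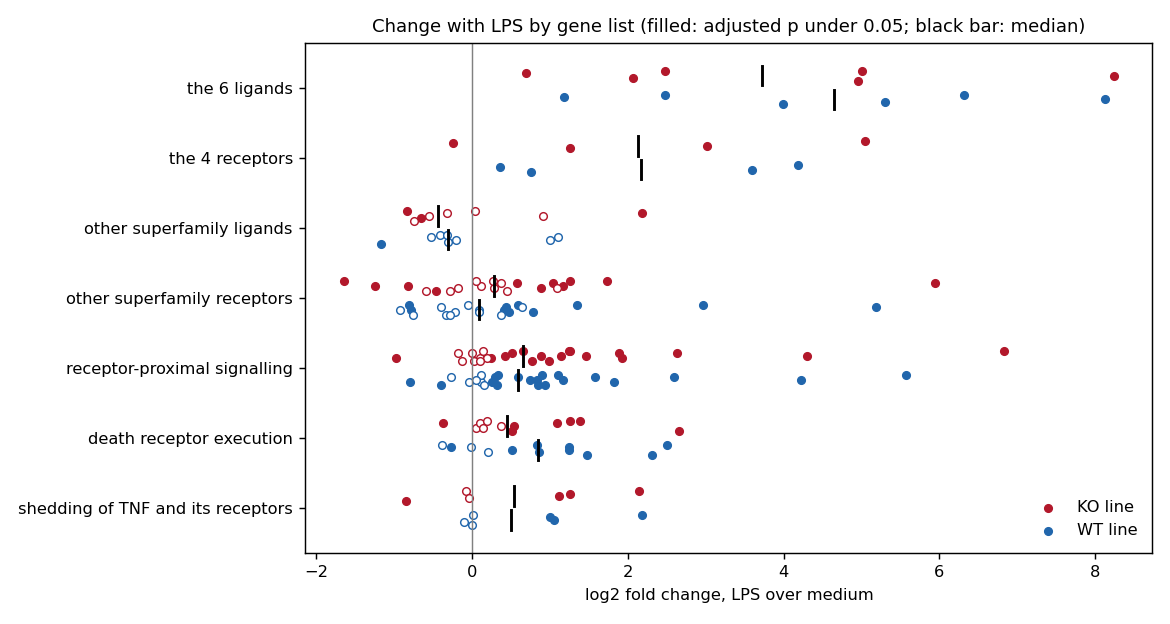
Log2 fold change under LPS of every tested gene of the 10 and of 5 related lists, in KO cells and in WT cells, 1 point per gene, with a mark at each list's median and filled points for an edgeR adjusted p under 0.05. The medians of the 6 ligands are 3.72 in KO cells and 4.65 in WT cells and those of the other superfamily ligands are -0.44 and -0.31. The 6 ligands were chosen with earlier results of these data known, so this contrast is no test.

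Likeness was measured as the root mean square distance between centred log2 CPM profiles over the 12 libraries, against 9800 genes whose log2 CPM averaged 2 or more. The 5 genes nearest to Tnf were the chemokines Ccl7 (0.332) and Ccl2 (0.488), the interferon-inducible GTPase Gbp2 (0.681), and the cytokines Il1b (0.694) and Il6 (0.736). The nearest to Fas was the kinase Pim1 (0.247), to Tnfrsf1b the ubiquitin ligase Peli1 (0.159), to Lta the NF-kB cofactor Nfkbiz (0.583) and to Tnfsf15 the RNase Zc3h12a (0.374). Ptprj was nearest to Tnfsf9 (0.164), Anxa2 to Tnfrsf9 (0.0801) and Nsmce1 to Tnfrsf1a (0.0773). A small distance is easier to reach for a gene that varies little, such as Tnfrsf1a, so distances are not comparable between the 10 genes.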

How the data were processed

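The deposited values are whole-number read counts, not normalized, for each Ensembl gene in 12 libraries. Libraries were made by the authors from total RNA with a stranded kit that removes ribosomal RNA, per the labels. FastQC 0.11.9, Trimmomatic 0.39, STAR 2.7.9a, featureCounts and GRCm39 are named in the submitters' processing notes. The strand setting is not given in the sources used here. Symbols (52083 of 55416 identifiers), gene classes and exon lengths came from GENCODE on GRCm38, so no coordinates were read for the counts.

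The test was the quasi-likelihood test of edgeR 4.0.16 (R 4.3.3; filterByExpr, count minimum 10, TMM, robust quasi-likelihood fit, 4 group means over 12 libraries), with Benjamini-Hochberg adjustment over 26420 genes and calls at an adjusted p under 0.05. The biological coefficient of variation was 0.235. The script was tested on simulated data. SE and 95% intervals come from the fit. Log2 CPM used a prior count of 2. Alternatives were DESeq2 1.42.0, RLE scaling, no filter, a count minimum of 50, library size alone, robust estimation off, the replicate block, protein-coding genes only, the pseudogene share as a covariate, only the groups compared and each library left out.

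The 10 genes, the lists and the markers were chosen with earlier results of these data known. All 10 genes are named. From each other list the called genes with the largest positive and negative change at a mean log2 CPM of at least 1 may be named. Likeness used the 5 genes nearest to Tnf and the nearest to each other gene at that mean.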

Additional observations from a re-analysis of the deposited data

Results flagged for a closer look

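Among the 10 genes, the LPS effect of 2 differed between the lines by the test of the difference itself. For Tnfsf10 the LPS effect in KO cells minus that in WT cells was -3.23 on the log2 scale (edgeR adjusted p = 0.00769), with 95% interval -4.28 to -2.17. For Tnfrsf1a it was -0.60 (edgeR adjusted p = 0.0267), with 95% interval -0.86 to -0.35, and the effect had opposite signs in the lines, at -0.24 in KO cells and 0.36 in WT cells. The Tnfrsf1a difference was called in 16 of 21 alternatives and the fall in KO cells in 16 of 22, with the fall lost with DESeq2 (adjusted p = 0.103) and RLE scaling (edgeR adjusted p = 0.0863) among others.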

How the results depend on the processing

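Of 1089 log2 fold changes of the 10 genes recomputed under 22 alternatives, 988 kept their direction and side of the threshold. Of the rest, 69 lost a call, 19 gained one and 13 changed sign. The 13 started from -0.010 (Lta) or 0.003 (Tnfsf9) and moved to values between -0.232 and 0.115, none of them called. Lta, KO against WT under LPS, changed sign to 0.068 with library size alone and 0.027 with a count minimum of 50, and ranged between -0.128 and 0.115 with a library left out, positive without KO LPS replicate 2 or 3 or WT LPS replicate 1. The Tnfsf9 difference between LPS effects changed sign to -0.019 with no filter, -0.015 with the replicate block and -0.053 with protein-coding genes only, and ranged between -0.232 and 0.226 with a library left out, negative without KO LPS replicate 1 or 3, KO medium replicate 1, WT LPS replicate 2 or WT medium replicate 3.

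Counts of called genes moved as follows, and the cause was not tested. The count higher in KO than in WT cells in medium was 2 with library size alone, 3 with a count minimum of 50, 4 with the replicate block, 3 with protein-coding genes only, 0 with the pseudogene covariate, 0 with only the groups compared and 2 with DESeq2, and 0 to 2 with a library left out. The count lower in KO cells in medium was 1 with the covariate, and 2 to 4 with a library left out. The count higher in KO cells under LPS was 0 with RLE scaling or no filter, and 0 to 1 with a library left out. The count lower under LPS than in medium in KO cells was 0 with RLE scaling, the covariate or DESeq2, and 0 to 1 with a library left out. Larger LPS effects in KO cells numbered 1 with the replicate block, and 0 to 1 with a library left out. Smaller ones numbered 1 with the covariate, and 1 to 3 with a library left out.

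The labels do not say whether a replicate number marks a shared day or batch. Same-numbered libraries all correlated positively between KO medium and WT LPS (0.108 to 0.231), groups not compared with each other. They also did between KO LPS and KO medium (0.192, 0.335 and 0.0449), groups that were compared. Between the other groups the signs were mixed (-0.366 to 0.391). These correlations do not settle whether the numbers pair the libraries, and the block was fitted only as an alternative. For Tnfrsf1b, Tnfrsf9 and Fas, replicate 2 was the lowest library in all 4 groups. With the replicate block the Fas difference between LPS effects was 0.85 (edgeR adjusted p = 0.0277), and Tnfrsf1b stood at -0.40 for KO against WT under LPS (adjusted p = 0.000907) and at -0.59 for the difference between effects (adjusted p = 0.00718). Without the block none of these was called (edgeR adjusted p = 0.218, 0.0916 and 0.25). In medium the block also called Ltb (0.87; adjusted p = 0.0479) and Tnfrsf1a (0.23; adjusted p = 0.0223) higher in KO cells. Counting depth limits Tnfsf10 and Tnfsf15 in medium, at 3 to 22 counts per library. It also limits Lta in medium, at 5 to 14 counts per WT library and 21 to 25 per KO library, and with it the values that rest on that level.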

Other observations

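Other genes of the family changed between the lines or in their LPS response. Of 21 other receptors tested, 2 were called higher and 4 lower in KO than in WT cells in each condition. Of 8 other ligands tested, 1 was called higher and 0 lower in each condition. Over all genes the shares were 7.87% higher and 12.7% lower under LPS, and 6.88% and 12.3% in medium. Tnfsf12, which encodes the cytokine TWEAK, was called higher in KO than in WT cells in medium (0.98 ± 0.25; edgeR adjusted p = 0.0178), a call lost without KO medium replicate 1 or 3, without WT medium replicate 1 or with the pseudogene covariate (highest adjusted p = 0.0995). Tnfrsf12a, which encodes the receptor of that cytokine, had a larger LPS effect in KO than in WT cells by 0.75 ± 0.16 (edgeR adjusted p = 0.0443), called in 7 of 21 alternatives. Its levels were 21.6 ± 1.6 CPM in KO cells under LPS and 9.65 ± 0.91 CPM in KO cells in medium, against 17.5 ± 2.2 and 13.1 ± 0.82 CPM in WT cells under LPS and in medium (SD, n = 3).

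Tnfrsf8, which encodes the lymphocyte activation receptor CD30, had a smaller LPS effect in KO than in WT cells, by a log2 difference of -1.23 ± 0.27 (edgeR adjusted p = 0.0459), called in 8 of 21 alternatives. It was at 5.90 ± 1.3 CPM in KO cells under LPS and 1.78 ± 0.021 CPM in KO cells in medium, against 7.49 ± 0.89 and 0.962 ± 0.085 CPM in WT cells under LPS and in medium. Ltbr, the lymphotoxin beta receptor, was called higher in KO than in WT cells under LPS, at 38.6 ± 0.16 and 31.6 ± 1.5 CPM (0.29 ± 0.08; edgeR adjusted p = 0.0238). Its call was lost without KO LPS replicate 1, 2 or 3, without WT LPS replicate 2 or 3, or with no filter (highest adjusted p = 0.105). Tnfrsf23 was called lower in KO than in WT cells under LPS, at 15.3 ± 2.3 and 22.6 ± 0.96 CPM (-0.56 ± 0.12; edgeR adjusted p = 0.00659). That call was made in 22 of 22 alternatives.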
